A study of Mus musculus with 8 samples.

Results

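Cultured mouse aortic smooth muscle cells at the 2 ends of the serum response factor and myocardin axis were compared directly, on 4 arrays of the 8 in the series. One end was wild-type cells given a Myocd adenovirus (AdMyocd, 2 arrays, called Myocd cells here), and the other was Srf knockout cells given an empty adenovirus (AdEmpty, 2 arrays, called knockout cells). The groups were identified by their sample titles, and they were chosen as the extremes of this axis and also as the 2 cultured groups with the tighter replicates, which is a property of the measured values. Every culture was at passage 3, was transduced with adenovirus (multiplicity of infection 100) and was harvested 3 days later. The remaining arrays were wild-type cells with AdEmpty (2 arrays), and aorta (1 array) and liver (1 array), both titled as wild type. They are set beside the comparison where they bear on it. The sources used here do not say how Srf was deleted, from which species the Myocd insert came, or whether replicates were separate cultures or animals, so the spread behind the p-values is only that between these arrays and may be technical. The 2 groups differed in genotype, in viral insert and in slide, and these cannot be told apart in this comparison.

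The product of Srf, serum response factor, binds CArG boxes in the promoters of cytoskeletal, contractile and immediate early genes. Myocd encodes myocardin, a coactivator that has no such binding of its own and acts on these promoters through serum response factor, and it is known for switching on the contractile genes of smooth and cardiac muscle. By their titles, knockout cells would therefore lack the DNA-binding partner, and Myocd cells would carry an excess of the coactivator. Neither was measured here.

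RNA was labelled with Cy3 by random priming along whole transcripts and hybridised to one-colour arrays designed for mouse lncRNAs and mRNAs. Levels are given in log2 units relative to the 75th percentile of each array's processed intensity, so 0 is that percentile. The 75th percentile was 452 to 498 intensity units on the 6 cultured arrays, and 68.2% to 74.7% of probes were well above background there. The robust SD of probe-wise log2 differences between replicates was 0.22 for Myocd cells, 0.22 for knockout cells and 0.43 for wild-type cells. Only 15 of 60930 probes carried a RefSeq accession, and each of these 15 probes was printed in 20 spots per array. No probe was matched to Srf or Myocd, or to any of the smooth muscle markers Acta2, Tagln, Cnn1, Myh11, Smtn and Lmod1, so neither the genotype, the virus nor the cell type was checked by its own transcript.

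In Myocd cells, 3 of the 15 identified genes were higher than in knockout cells (Tfrc, Actb and Gk) and 2 were lower (G6pd2 and Gusb), with limma's Benjamini-Hochberg adjusted p under 0.05 over all tested probes. That is 33.3% of these genes, against 28.0% of all 44081 tested probes, so the share among identified genes lay near the background. Their median log2 difference was -0.03, against -0.08 over all tested probes. The arrays of both groups did not overlap for 10 of the 15 genes, as for 71.6% of all tested probes. Of 14 gene lists drawn up for this tissue, 7 had an identified member. The lists of smooth muscle contractile genes, cardiac and skeletal muscle genes, serum-induced early genes, regulators of serum response factor, proliferation, matrix and long non-coding RNAs had none.

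The actin gene moved and the tubulin gene did not pass the test. Actb encodes cytoplasmic beta-actin, the building block of non-muscle actin filaments and a textbook target of serum response factor. Its level was 9.67 and 9.65 on the Myocd arrays and 9.01 and 8.84 on the knockout arrays. Both Myocd arrays were higher than both knockout arrays, and the wild-type arrays, at 9.19 and 9.60, lay between the groups. The log2 difference of Actb was 0.73 (SE 0.18, limma adjusted p = 0.0306), or 1.66-fold. This call needed all 4 arrays. Leaving out either Myocd array gave Actb an adjusted p of 0.127 or 0.129 with limma, and leaving out either knockout array gave 0.106 or 0.166, with log2 differences from 0.64 to 0.82. It was also lost when dim probes were kept in the test (limma adjusted p = 0.0622). Tuba1b, an alpha-tubulin gene of the microtubule network, stood at 9.55 and 9.53 in Myocd cells and at 9.72 and 9.67 in knockout cells, a log2 difference of -0.16 (SE 0.20, limma adjusted p = 0.601).

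Tfrc, the transferrin receptor that carries iron into cells, gave the largest rise among the identified genes. Its level was 6.71 and 6.68 on the Myocd arrays and 5.14 and 5.14 on the knockout arrays. The replicate SD of Tfrc was 0.021 in Myocd cells and 0.006 in knockout cells, against 0.41 in wild-type cells. Both groups were chosen partly for their tighter replicates, so this closeness is no support for the difference. The log2 difference of Tfrc was 1.55 (SE 0.21, limma adjusted p = 0.00342), or 2.93-fold. The wild-type arrays, at 6.07 and 6.65, were nearer the Myocd arrays. Of the distance from knockout to Myocd cells, 0.79 had been covered at the wild-type mean, and that portion lies within the slide that wild-type and knockout cells shared. Tfrc passed in each of the 16 alternatives that could be run for it, with log2 differences from 1.54 to 1.68. In whole tissue its level was 4.16 in aorta and 5.31 in liver.

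Among genes of carbohydrate and glycerol metabolism, 1 was higher in Myocd cells, 1 was lower and 2 did not pass. G6pd2 is an autosomal retrocopy of the gene for glucose-6-phosphate dehydrogenase, the entry enzyme of the pentose phosphate pathway. Its level was 2.52 and 2.44 on the Myocd arrays and 5.06 and 4.95 on the knockout arrays. Wild-type arrays lay between them at 4.22 and 4.06. The log2 difference of G6pd2 was -2.53 (SE 0.14, limma adjusted p = 0.000126), or 5.78-fold lower in Myocd cells, and it passed in all 16 alternatives run for it. Gk, which encodes glycerol kinase, stood at -1.47 and -1.41 in Myocd cells and at -2.02 and -2.17 in knockout cells. Its wild-type arrays, at -2.20 and -2.02, overlapped the knockout arrays, and the log2 difference of Myocd minus wild-type cells was 0.68.

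The log2 difference of Gk between Myocd and knockout cells was 0.66 (SE 0.15, limma adjusted p = 0.0214), or 1.58-fold. The probe was dim, at 176 and 175 intensity units on the Myocd arrays and 111 and 110 on the knockout arrays. Its log2 difference was 0.45 with normexp background correction and 0.76 with median scaling. The call of Gk was lost without either Myocd array (limma adjusted p = 0.0946 and 0.123) and without either knockout array (limma adjusted p = 0.0918 and 0.142), while its log2 difference stayed between 0.59 and 0.73. Gapdh, a glycolytic enzyme gene, stood at 9.68 and 9.66 in Myocd cells and 9.44 and 9.29 in knockout cells, a log2 difference of 0.31 (SE 0.19, limma adjusted p = 0.294). Ldhal6b, a lactate dehydrogenase-like gene, had overlapping groups and a log2 difference of 0.12 (SE 0.14, limma adjusted p = 0.605).

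The stretches before the annotated starts of Tfrc, Gk, G6pd2 and Gusb are shown because these 4 called genes had promoter windows to set against the known binding preference of serum response factor. Each is 250 bases in RefSeq's annotation of build GRCm38.p6, read 5′ to 3′ on the gene's strand, with CCAAT or GGGCGG on either strand in capitals. The array design used build mm9, so these are positions of the genes and not of the probes. For Tfrc, which has 2 annotated starts, the upstream one was taken (chr16:32608646-32608895, plus strand). Gk lies at chrX:85776820-85777069 on the minus strand G6pd2 at chr5:61808593-61808842 on the plus strand and Gusb at chr5:130003050-130003299 on the minus strand.
Tfrc: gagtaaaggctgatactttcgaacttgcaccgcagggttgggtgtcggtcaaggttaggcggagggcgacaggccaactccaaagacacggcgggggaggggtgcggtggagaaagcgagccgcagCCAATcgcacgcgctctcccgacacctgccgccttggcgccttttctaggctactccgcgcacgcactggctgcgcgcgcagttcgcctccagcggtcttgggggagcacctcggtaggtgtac
Gk: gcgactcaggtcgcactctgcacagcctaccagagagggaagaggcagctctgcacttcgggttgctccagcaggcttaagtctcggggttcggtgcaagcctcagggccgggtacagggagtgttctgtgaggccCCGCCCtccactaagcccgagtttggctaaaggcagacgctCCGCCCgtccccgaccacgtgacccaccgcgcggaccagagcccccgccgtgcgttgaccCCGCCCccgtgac
G6pd2: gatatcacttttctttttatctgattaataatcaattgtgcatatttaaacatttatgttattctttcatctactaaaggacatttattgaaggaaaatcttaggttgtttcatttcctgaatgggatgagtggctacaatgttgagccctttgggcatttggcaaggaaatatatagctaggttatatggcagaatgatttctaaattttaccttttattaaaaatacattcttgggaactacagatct
Gusb: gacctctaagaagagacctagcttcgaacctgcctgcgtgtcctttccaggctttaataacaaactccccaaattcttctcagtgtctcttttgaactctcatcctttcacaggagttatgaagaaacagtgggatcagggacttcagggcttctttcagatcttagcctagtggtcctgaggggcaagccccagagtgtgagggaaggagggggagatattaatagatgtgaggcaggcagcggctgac
The Tfrc window holds 1 CCAAT match and is 64.8% G or C. The Gk window holds 3 GGGCGG matches and is 67.2% G or C. The G6pd2 window holds neither and is 30.0% G or C, against a median of 52.4% over all 32851 upstream windows in the table. The Gusb window also holds neither and is 49.6% G or C. CCAAT occurs in 33.8% and GGGCGG in 32.7% of these windows. A CArG box was found in none of the 4 windows, nor in any of the 14 windows of the 13 identified genes that were matched, and in 1.47% of all windows. Actb and Hsp90ab1 were not matched. Such matches describe the letters in these windows only.

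Gusb, which encodes the lysosomal enzyme beta-glucuronidase, was lower in Myocd cells. Its level was 5.05 and 4.87 on the Myocd arrays and 5.84 and 5.69 on the knockout arrays, with wild-type cells in between at 5.52 and 5.51. The log2 difference of Gusb was -0.80 (SE 0.15, limma adjusted p = 0.0104), or 1.75-fold lower. Without Myocd replicate 2 the limma adjusted p of Gusb was 0.0817, and without knockout replicate 1 or 2 it was 0.0919 or 0.0532, with log2 differences from -0.88 to -0.71. Hprt, which recycles purines, stood at 7.42 and 7.34 in Myocd cells and 7.54 and 7.43 in knockout cells, a log2 difference of -0.10 (limma adjusted p = 0.682). B2m, which encodes beta-2 microglobulin of class I histocompatibility molecules, stood at 8.32 and 8.41 in Myocd cells and 8.47 and 8.17 in knockout cells, which overlap.

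None of the 5 identified chaperone, ribosomal and RNA-binding genes passed. Hsp90ab1, a constitutive cytosolic chaperone gene, had a log2 difference of -0.30 (SE 0.14, limma adjusted p = 0.181), and its 2 Myocd arrays, at 7.90 and 7.83, lay below its 2 knockout arrays, at 8.22 and 8.11. Rpl13a, a ribosomal protein gene, had a log2 difference of -0.18 (SE 0.17, limma adjusted p = 0.493). Nono, Tbp and Ppia, which encode an RNA-binding protein, the TATA-binding protein and cyclophilin A, had values of -0.07, -0.03 and 0.05, with overlapping groups in each case. For Hsp90ab1, Rpl13a, Nono, Tbp and Hprt both wild-type arrays were above all 4 arrays compared, and for Ldhal6b both were below them. Several of the 15 genes have near-identical copies or pseudogenes, and for Actb, Gapdh, Ppia, Rpl13a, Tuba1b and G6pd2 the transcript behind the probe is uncertain.

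**Figure D1:**
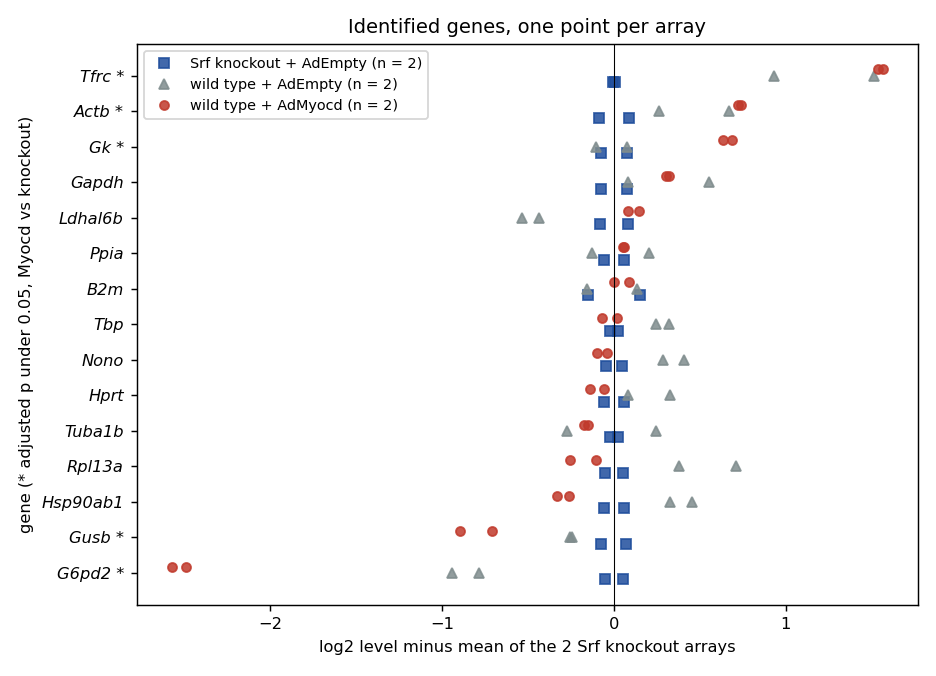
Each point is 1 array, given as its log2 level minus the mean of the 2 knockout arrays (x axis), for the 15 identified genes (y axis, ordered by difference), with Myocd cells as circles, knockout cells as squares and wild-type cells with AdEmpty as triangles. Tfrc and Actb have their Myocd points to the right of the knockout points, G6pd2 and Gusb to the left, and Gk has wild-type points beside the knockout points.

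Control spots for both ends of 2 mRNAs, Pgk1 and Gapdh, were read on the same scale and stand outside the test. The Pgk1 spots, for a glycolytic kinase, were 0.38 higher in Myocd than in knockout cells at the 3′ end and 0.96 higher at the 5′ end. The Gapdh control spots were 0.49 higher at the 3′ end and 0.40 at the 5′ end, on the same side as the Gapdh probe above. For Pgk1 the 5′ signal minus the 3′ signal was -3.16 and -3.15 on the Myocd arrays, -3.91 and -3.57 on the knockout arrays and -3.05 and -3.57 on the wild-type arrays. For Gapdh it was 0.47 and 0.56, 0.56 and 0.64, and 0.55 and 0.29. For Pgk1, knockout replicate 1 was the lowest, and knockout replicate 2 equalled wild-type replicate 2 at these digits. Whether RNA quality had a part in the differences reported here was not tested.

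Over all tested probes, 12331 of 44081 differed between Myocd and knockout cells (28.0%, limma adjusted p under 0.05), 5177 of them higher (11.7%) and 7154 lower (16.2%) in Myocd cells. The median called difference was 1.14 on the log2 scale for higher and -1.10 for lower probes, and 42.4% of the calls were under 2-fold. At least 4-fold apart were 2567 called probes (5.82%), 1176 higher and 1391 lower, and at least 16-fold apart were 259 higher and 269 lower. Median scaling turned the balance to 5908 higher and 5678 lower calls, and the median of all probes moved from -0.08 to 0.01. The number of calls rested on all 4 arrays. It was 7535 and 6564 without Myocd replicates 1 and 2, and 5957 and 6810 without knockout replicates 1 and 2, while calls of at least 4-fold numbered 2395 to 2632 without single arrays. The latter count moved with other settings, to 1191 with normexp background correction and to 1618 with only probes above background on each of the 4 arrays. In these fits the lone array of a group was taken to have the spread of the remaining groups.

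**Figure D2:**
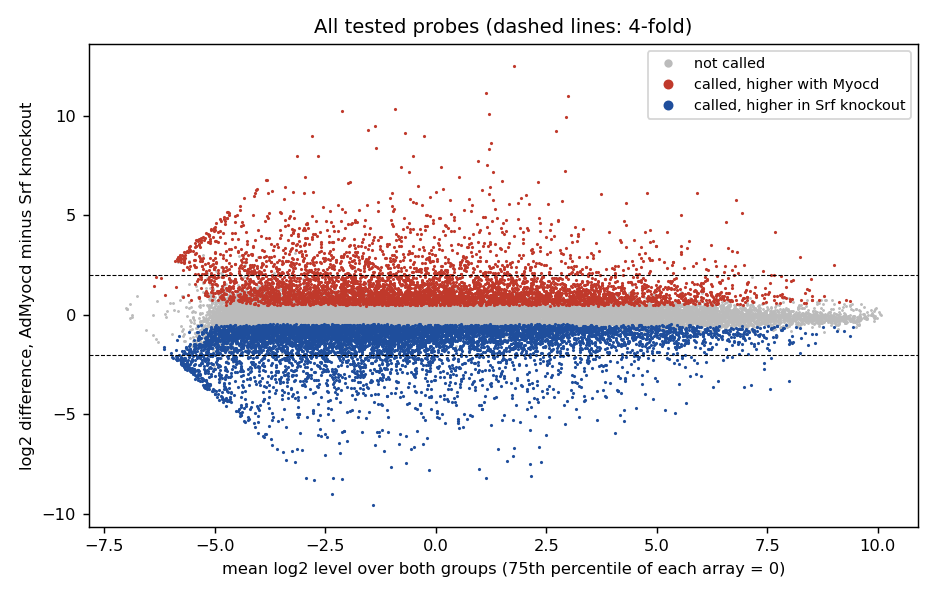
Each point is 1 tested probe, with its mean log2 level over both groups (x axis) and the log2 difference of Myocd minus knockout cells (y axis), grey where it was not called. Called probes lie on both sides of 0 over most of the range of signal, and those at least 4-fold apart lie on or beyond the dashed lines. Probes without a value on each of the 4 arrays are not plotted.

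Calls were spread over the range of signal. With the tested probes ranked by mean level and divided into 4 equal bins, the share called was 22.5%, 24.2%, 32.5% and 32.7% from the dimmest to the brightest. Calls of at least 4-fold, in both directions together, were most numerous in the dimmest bin, with 328 higher and 478 lower. The next-to-brightest bin held 331 higher and 349 lower ones, so the excess of the dimmest bin lay in the lower calls. The dimmest bin also had the widest median SE, at 0.24 against 0.17 to 0.18 in the other 3 bins. By kind of identifier, 45 of 436 humanlincRNA probes were called (10.3%), 32 of 288 mouselincRNA probes (11.1%), 54 of 379 ASMM10UP probes (14.2%) and 9 of 51 MM9LINCRNAEXON probes (17.6%), against 12186 of 42911 ASMM10P probes (28.4%). Median log2 differences were -0.12, -0.11, -0.02, -0.14 and -0.08 in the same order. The first 4 kinds were dim, with median levels from -3.39 to -2.93, against -1.47 for ASMM10P, and the part of signal in their shares was not tested. In all 5 kinds more probes were called lower than higher in Myocd cells, with 5125 higher and 7061 lower for ASMM10P and 11 and 34 for humanlincRNA. Over all probes this balance turned under median scaling, as given above, and the kinds were not recounted there.

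Some probes were well above background in 1 of the groups only. On both Myocd arrays and neither knockout array there were 438 such probes, of which 389 were called (88.8%). In the opposite pattern there were 1914, of which 1059 were called (55.3%). Over all tested probes the share called was 28.0%. The test admitted the 438 and 1914 probes through a group in which they are bright, so their number of calls is a description. Over the whole array, 70.6% and 74.7% of probes were well above background on the knockout arrays, against 68.3% and 68.2% on the Myocd arrays. The part of this in the numbers of such probes was not tested. For a probe that is not well above background in a group, only a bound can be given ("at least N-fold"). It sets the mean of the bright group against the mean of floors on the dim arrays, where a floor is the lowest level of any probe well above background or the probe's own level if that is higher. Where the probe's own level is the higher on both dim arrays, the bound equals the measured ratio. Bounds above 1 were obtained for 388 of the called probes seen only in Myocd cells, with a median of at least 2.96-fold and a highest value of at least 598-fold, and 140 were at least 4-fold higher. In the opposite pattern they were obtained for 1029 probes, with a median of at least 1.76-fold and a highest value of at least 270-fold, and 198 were at least 4-fold higher in knockout cells. Of the 389 called probes seen only in Myocd cells, 227 were well above background on neither wild-type array and 108 on both. Of the 1059 seen only in knockout cells, 515 were well above background on neither wild-type array and 328 on both. Probes well above background on all 4 arrays numbered 38957, and 10385 of them were called (26.7%), 4568 higher and 5817 lower.

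Among probes detected above background on each of the 4 arrays, the largest differences reached more than 11 log2 units upwards and 8 downwards, and these probes carry only the array maker's identifier. ASMM10P000157 stood at 7.98 and 8.08 in Myocd cells and at -4.64 and -4.33 in knockout cells, a log2 difference of 12.51 (SE 0.16, limma adjusted p = 1.1e-05). Its wild-type arrays lay almost midway, at 1.80 and 1.83. ASMM10P047496 stood at 6.68 and 6.70 in Myocd cells and at -4.40 and -4.48 in knockout cells, a log2 difference of 11.13 (SE 0.21, limma adjusted p = 1.1e-05). Its wild-type arrays, at -2.46 and -1.90, were nearer the knockout arrays. The knockout levels of both probes were dim, below -3.28, the highest mean level in the dimmest bin above. The sizes of both differences, and the wild-type positions, rest on these dim values.

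In the other direction, ASMM10P012699 stood at -2.80 and -3.16 in Myocd cells and at 5.27 and 5.19 in knockout cells, a log2 difference of -8.21 (SE 0.28, limma adjusted p = 3.13e-05). Its wild-type arrays, at -2.64 and -1.88, were near the Myocd arrays. ASMM10P014064 stood at -1.86 and -1.92 in Myocd cells and at 6.30 and 6.14 in knockout cells, a log2 difference of -8.11 (SE 0.15, limma adjusted p = 1.1e-05), with wild-type arrays between at 0.89 and 1.03. Both probes that were highest in Myocd cells were low in whole tissue. ASMM10P000157 stood at -1.48 in aorta and -4.22 in liver, and ASMM10P047496 at -2.34 and -3.68. All 4 probes kept their calls in the 17 alternatives tried. Their sizes were smaller with normexp background correction, at 10.51 for ASMM10P000157, 9.15 for ASMM10P047496, -7.17 for ASMM10P012699 and -7.53 for ASMM10P014064 on the log2 scale.

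**Figure D3:**
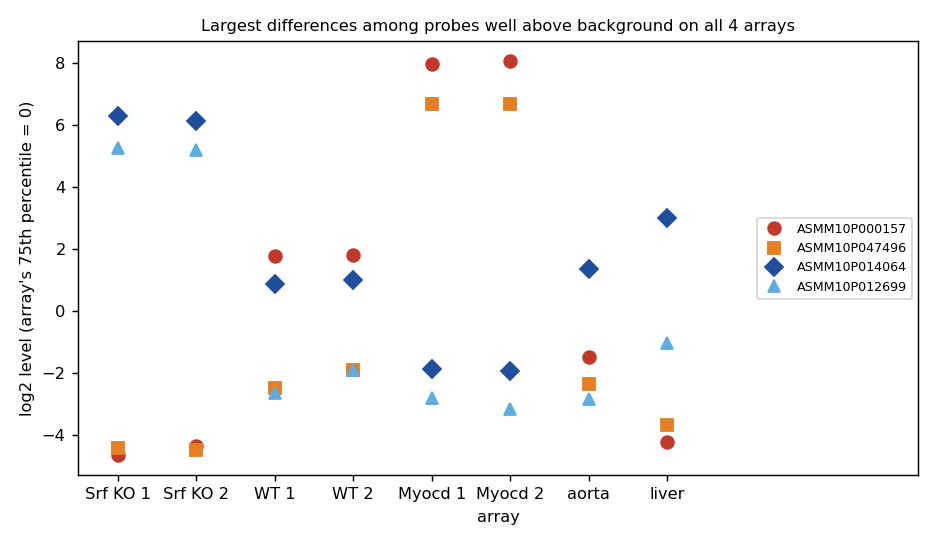
Points show the log2 level (y axis) of the 4 probes with the largest differences on each of the 8 arrays (x axis). ASMM10P000157 and ASMM10P047496 are highest on both Myocd arrays, and ASMM10P012699 and ASMM10P014064 are highest on both knockout arrays, with ASMM10P014064 also above 0 in wild-type cells, aorta and liver.

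Wild-type cells with AdEmpty were set on the axis between both groups for the large differences. Their arrays are no term of the contrast, but they entered the filter on dim probes and the estimate of the spread. The position of the wild-type mean was expressed as a fraction of the distance from the knockout mean, set to 0, to the Myocd mean, set to 1. Among the 1170 called probes at least 4-fold higher in Myocd cells that had a value on every array, the median position was 0.30 (0.31 and 0.30 with each wild-type array alone), and wild-type cells were nearer the knockout mean for 798 (68.2%). Among the 1388 called probes at least 4-fold higher in knockout cells, the median was 0.80 (0.81 and 0.78 with each wild-type array alone), and wild-type cells were nearer the Myocd mean for 1125 (81.1%). Wild-type cells thus lay on the low side for most of these probes, whichever end of the axis was the high one.

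Wild-type cells fell outside the interval between both groups for a minority. They lay beyond the knockout mean for 239 (20.4%) of the probes at least 4-fold higher in Myocd cells and beyond the Myocd mean for 51 (4.36%). Of the probes at least 4-fold higher in knockout cells, they lay beyond the Myocd mean for 349 (25.1%) and beyond the knockout mean for 20 (1.44%). The medians kept to their side of the midpoint in the 16 alternatives run for them, from 0.29 to 0.39 for probes higher in Myocd cells and from 0.76 to 0.83 for probes higher in knockout cells. Restricted to probes above background on each of the 4 arrays, they were 0.36 and 0.77. Over calls of any size the medians were 0.45 and 0.67, and the first of these ranged from 0.36 to 0.59, so over all higher calls no side of the midpoint can be given. The AdEmpty arrays of both genotypes were on 1 slide, so the distance from knockout to wild type lies within that slide, and the distance from wild type to Myocd crosses slides.

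**Figure D4:**
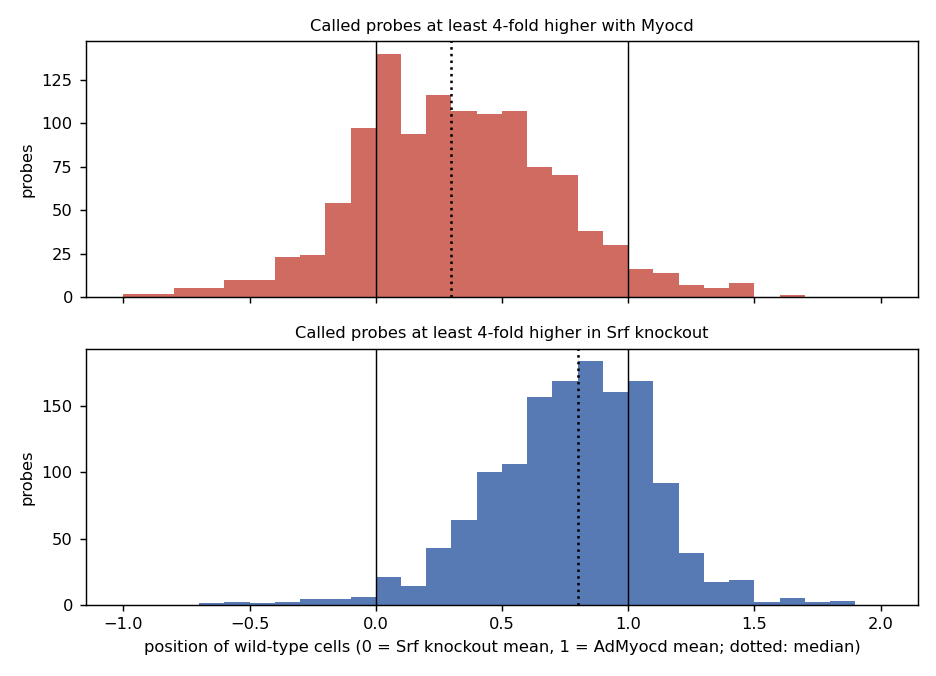
Histograms of the position of wild-type cells (x axis, 0 at the knockout mean and 1 at the Myocd mean) for called probes at least 4-fold higher in Myocd cells (upper) and at least 4-fold higher in knockout cells (lower), in numbers of probes (y axis), with 5 and 1 probes outside the plotted range. The upper histogram has its median at 0.30, near the knockout end, and the lower one at 0.80, near the Myocd end.

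Whole aorta lay nearer the knockout than the Myocd mean for most of these probes, in both directions of difference. Of 1172 probes at least 4-fold higher in Myocd cells with a value in both tissues, aorta lay nearer the Myocd than the knockout mean for 420 (35.8%) and liver for 278 (23.7%). For 275 of them this held in aorta and not in liver, and for 133 in liver and not in aorta. Of 1390 probes at least 4-fold higher in knockout cells, aorta lay nearer the Myocd mean for 519 (37.3%) and liver for 724 (52.1%). Aorta was thus nearer the knockout mean for 64.2% of the first set and 62.7% of the second. In aorta, 571 of these 1390 probes were at or beyond the knockout mean, and in liver 422, against 20 of 1388 in cultured wild-type cells. Each tissue was a single array, it shared a slide with the Myocd arrays, and it holds several cell types, among which fewer cells of a type and less RNA per cell cannot be told apart. With normexp background correction, aorta was nearer the Myocd mean for 198 of 587 (33.7%) and 255 of 602 probes (42.4%), and liver for 85 (14.5%) and 364 (60.5%) of the same sets. Restricted to probes above background on each of the 4 arrays, the shares were 35.1% of 792 and 39.5% of 822 for aorta, and 17.8% and 57.5% for liver. The share of liver among probes higher in Myocd cells thus moved by more than that of aorta in both settings. Each setting also changed the set of probes, and the part of the background correction in this was not tested. The share of liver also moved with scaling, to 16.8% with median scaling and 18.8% with quantile normalization, where aorta stood at 30.6% and 34.4%. The 75th percentile that was subtracted was 165 intensity units in liver and 364 in aorta, below the cultured arrays. The part of this in the tissue shares was not tested.

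**Figure D5:**
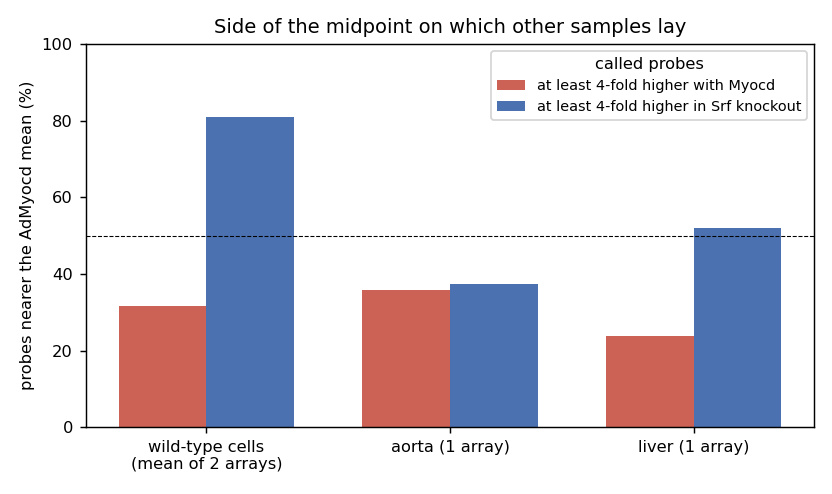
Bars give the percentage of called probes (y axis) for which wild-type cells, aorta or liver (x axis) lay nearer the Myocd mean than the knockout mean, separately for probes at least 4-fold higher in Myocd cells and at least 4-fold higher in knockout cells. Wild-type cells stand at 31.8% and 81.1%, aorta at 35.8% and 37.3%, and liver at 23.7% and 52.1%.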

How the data were processed

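The authors read each one-colour array with Agilent Feature Extraction 11.0.1.1, per the file headers and the submitters' processing notes, which gives a processed intensity per spot. A table deposited by the authors holds log2 values of 42995 probes and served as an alternative; its columns follow the scanner values (Pearson's r across probes from 0.997 to 1.00) with medians of 7.27, 7.27, 7.27, 7.27, 7.27, 7.27, 7.21 and 7.16, and its normalization was not stated.

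Outlier-flagged spots were left out, log2 values were averaged over the spots of a probe, and each array's 75th percentile was subtracted. Outside the control spots no spot was saturated, and saturation of control spots was not counted. A probe was tested if, in 1 or more cultured groups, most of its spots were well above background on both arrays (44081 probes, of which 1 is among the 15 negative-control probes). limma 3.58.1 in R 4.3.3 (lmFit and eBayes, two-sided) was fitted over the 6 cultured arrays, with 3 residual degrees of freedom and one spread for all groups. SE is limma's, and the number of arrays limits the precision. Accessions were matched without version to RefSeq genes, 15 of 15.

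Identified genes were all named; of other probes, the 2 largest called differences in each direction were, among those well above background and separated on all 4 arrays. Members and lists were chosen with earlier results of these data known. Alternatives covered scaling, background, filters, array weights, spread settings, a replicate block, a 1.5-fold threshold (limma's treat) and each array left out.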

Additional observations from a re-analysis of the deposited data

How the results depend on the processing

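Against 12331 calls (5177 higher, 7154 lower, 2567 at least 4-fold), the test against a 1.5-fold change gave 4885 (2154 higher, 2731 lower). Calls of at least 4-fold numbered 1191 with normexp and 1618 with only probes above background on each of the 4 arrays, where fewer probes were tested. Without single arrays the calls ranged from 5957 to 16176, higher ones from 2705 to 6765, lower ones from 3252 to 9411 and those of at least 4-fold from 2395 to 2632. The fits without either wild-type array equal the fit of the 4 arrays compared, with 16176 calls. That fit takes its spread only from the groups chosen partly for their tighter replicates. The other alternatives stayed within 1.5 times of each count. Replicate numbers were not shown to pair the arrays (correlation of replicate differences 0.09 between Myocd and knockout cells), and with the replicate block the calls numbered 10062, with limma adjusted p of 0.0610 for Actb and 0.0513 for Gk. Signs of genes that did not pass turned for Nono (0.025) and Tbp (0.068) under median scaling, for B2m (-0.0024) and Tbp (0.015) without Myocd replicate 2, and for B2m (-0.11) and Ppia (-0.0020) without knockout replicate 2; the cause was not tested. Without single arrays B2m ranged from -0.11 to 0.20, Ppia from -0.0020 to 0.11 and Tbp from -0.070 to 0.015. Against a 1.5-fold change, Tfrc and G6pd2 passed and Actb, Gk and Gusb did not (limma adjusted p = 0.904, 1.00 and 0.477). A fit with slide as a block could not be run, since slide and Myocd coincide, and normexp used the median spot signal. That choice, the position of wild-type cells and the tissue counts were chosen after seeing the data. Dim probes limit the sizes of differences: the median SE was widest, at 0.24, in the dimmest bin.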

Other observations

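Probes with consecutive identifiers of the ASMM10P kind had more similar differences than probes further apart in the numbering. Across 32766 pairs of tested probes whose numbers differ by 1, the log2 differences between Myocd and knockout cells correlated with Pearson's r = 0.14 and Spearman's rho = 0.12, across probes that share the same 4 arrays and are not independent. At a gap of 2 Pearson's r was 0.07 over 32463 pairs, and at a gap of 100 it was 0.0074 over 31784 pairs. Of 1941 probes called at least 4-fold apart with a tested successor, 264 (13.6%) had that successor called at least 4-fold apart in the same direction, against 56 of 1864 (3.00%) at a gap of 100. The files do not say how the identifiers were numbered, so a count of called probes may hold several probes of one transcript.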
